A study of Caenorhabditis elegans with 8 samples.

Results

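Argonautes are the proteins that hold a small RNA and use it to find complementary transcripts. Of the 46739 genes listed in the deposited tables, 9 Argonaute genes of the *C. elegans* small RNA pathways were taken by name: prg-1, prg-2, csr-1, ergo-1, rde-1, alg-1, alg-2, alg-3 and alg-4. All 9 were found and had a mean of at least 10 in the table of each temperature, the filter on low values. alg-3 at both temperatures and alg-4 at 25°C passed it only through *nmad-1*, where they are high. Their RNA was measured in germlines of *nmad-1*(ok3133) worms, a deletion strain of the AlkB family gene *nmad-1*, at 25°C and at 20°C, and in germlines of N2 Bristol (WT) worms at the same temperatures. Each of the 4 groups had 2 libraries, described as biological replicates and each prepared from mRNA of extracted germlines, of 100 worms per group. The samples carry the stage label L4, and all worms were fed dam- dcm- bacteria. One deletion allele stands for the genotype, so no second allele was measured.

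In the worm germline, PRG-1 binds piRNAs (21U RNAs), which scan for foreign sequence, and the WAGO Argonautes carry out the silencing with 22G RNAs. CSR-1 binds 22G RNAs made from most germline-expressed genes and is essential for chromosome segregation and fertility. ERGO-1 binds 26G RNAs of oocytes and embryos, ALG-3 and ALG-4 bind the 26G RNAs of sperm production, RDE-1 binds the primary siRNAs of RNA interference, and ALG-1 and ALG-2 bind miRNAs. The current annotation (WBcel235) places prg-1 on chromosome I, alg-2 on II, alg-4 on III, prg-2, csr-1 and alg-3 on IV, ergo-1 and rde-1 on V, and alg-1 on X. It lists prg-2 as a pseudogene.

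The values, called normalized expected counts here, are expected counts from RSEM over a size factor that EBSeq gave each library. They do not sum to equal totals: at 25°C the sums were 21937580 and 22505140 in *nmad-1*, against 32929742 and 33108053 in WT. Depth was estimated at 18451560 to 33429408 reads per library, ribosomal RNA genes took 22.2% to 34.8% of the values, and the highest share was in *nmad-1* library A at 20°C. Libraries are named A and B because the columns carry no replicate numbers. The *nmad-1* transcript had 170 and 171 in *nmad-1*, against 764 and 753 in WT at 25°C, and 114 and 131 in *nmad-1*, against 540 and 471 in WT at 20°C. It was lower in *nmad-1* germlines at both, with a log2 fold change of -2.15 at 25°C (limma, adjusted p = 1.5e-04) and -2.04 at 20°C (adjusted p = 6.0e-05). The summed markers of germ cells were 6875 to 7061 per 1000000 values outside ribosomal RNA (ppm) in *nmad-1* and 9938 to 10214 in WT at 25°C, and all 10 markers fell. Markers of muscle summed to 1511 to 1729 ppm in *nmad-1* and 440 to 559 in WT at that temperature, and 8 of 8 rose. In bulk germline RNA, fewer cells of a type and less RNA per cell cannot be told apart. At 20°C the germ cell markers summed to 7522 to 8867 ppm in *nmad-1* and 8895 to 8979 in WT, and muscle markers to 1903 to 5713 in *nmad-1* and 1885 to 2661 in WT.

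At 25°C, all 9 Argonaute genes differed between *nmad-1* and WT, 7 of them with means of at least 10 in both genotypes, and in none did the libraries of the genotypes overlap. PRG-1, PRG-2, CSR-1, ERGO-1, RDE-1 and ALG-2 transcripts fell, and ALG-1, ALG-3 and ALG-4 transcripts rose. These counts stand beside a broad change: 70.8% of the 11955 genes tested passed an adjusted p-value of 0.05 (limma on log2(value + 1), Benjamini-Hochberg over all genes). Of the genes tested 38% were lower in *nmad-1* and 32.8% higher. Among the 4065 genes averaging 1000 or more, 79.2% were lower, and 6 of the 7 Argonaute genes at this level were lower. The count of lower Argonaute genes is near that of other well expressed genes, and each change is therefore also placed among the changes of those genes. Germline markers fell further than that group: the median log2 fold change was -0.98 for germ cell markers (10 of 10 lower) and -0.88 for oocyte markers (12 of 12 lower).

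**Figure D1:**
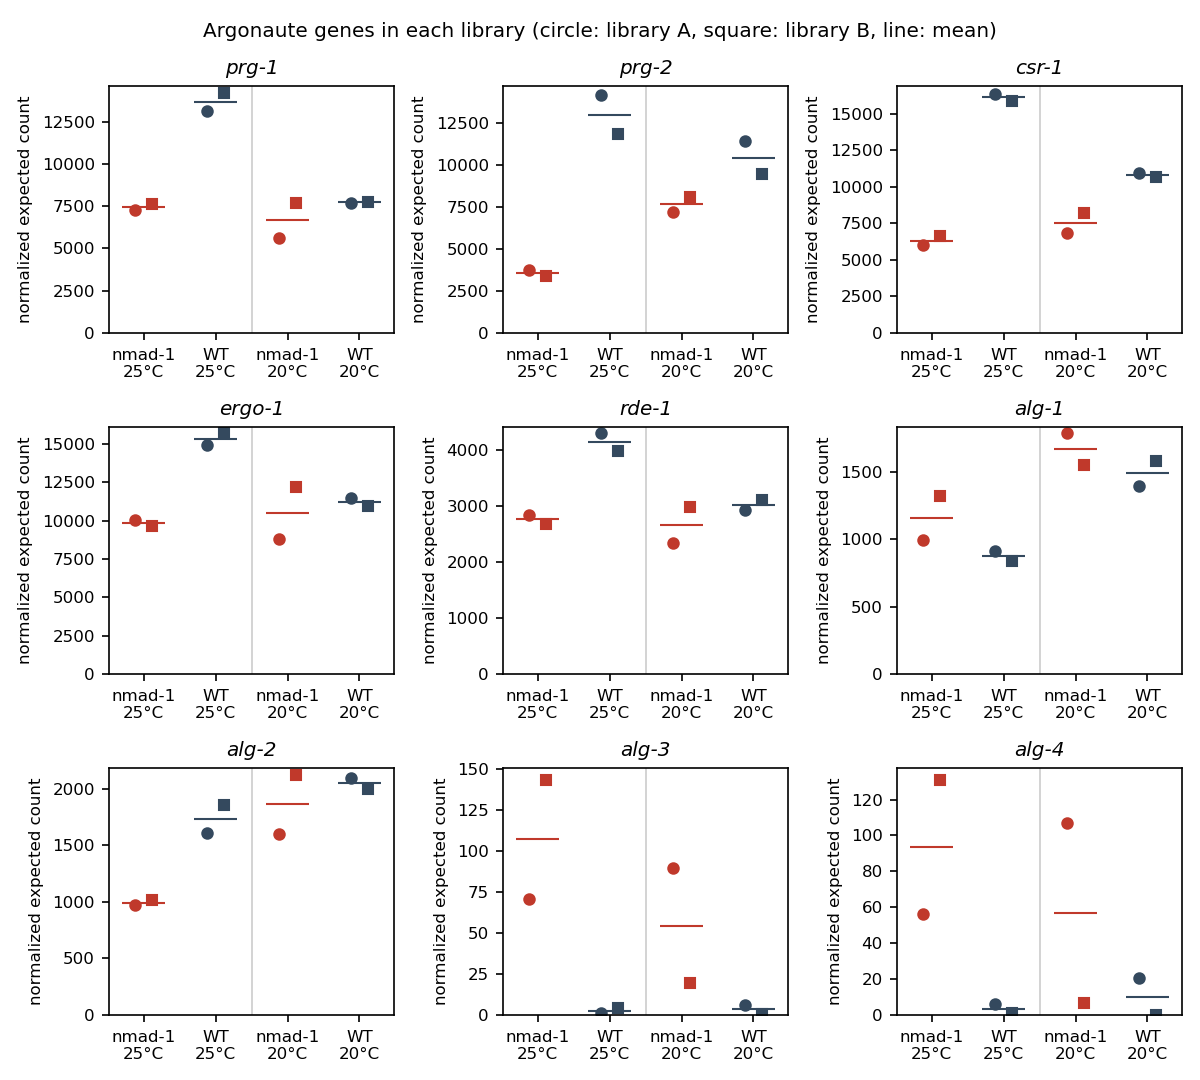
Normalized expected count (linear axis from 0) of the 9 Argonaute genes in each library, with nmad-1 in red and WT in dark blue at 25°C and at 20°C. Circles are library A, squares library B and lines the mean of the pair, and tables of the 2 temperatures were scaled separately. prg-2 sits at 3391 and 3774 in nmad-1 at 25°C, below both WT libraries, and alg-3 and alg-4 are near 0 in most WT libraries.

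The PIWI pair changed unequally. prg-2 had 3774 and 3391 normalized expected counts in *nmad-1* germlines at 25°C, against 14160 and 11822 in WT. Its mean was 3.63-fold higher in WT, with a log2 fold change of -1.85 (SE 0.11, adjusted p = 1.5e-04). None of the 4065 genes averaging 1000 or more had a lower fold change than prg-2. prg-1, the piRNA-binding Argonaute itself, had 7273 and 7604 in *nmad-1*, against 13135 and 14183 in WT. Its log2 fold change was -0.88 (SE 0.09, adjusted p = 2.5e-04), and 11.1% of the well expressed genes had a lower one.

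The ratio within a library does not depend on how libraries are scaled. prg-1 stood at 1.93 and 2.24 times prg-2 in *nmad-1* germlines at 25°C, against 0.928 and 1.20 times in WT. At 20°C the ratio was 0.784 and 0.95 in *nmad-1*, against 0.672 and 0.823 in WT. Both *nmad-1* libraries at 25°C thus lay above the other 6 libraries. As the genes are close paralogs, the quantification can split reads between them. Their estimates were whole numbers in 6 of 8 libraries and fractions in both WT libraries at 25°C, where the sum of the pair was whole. The sum, which such a split leaves alone, was 11047 and 10996 in *nmad-1*, against 27295 and 26006 in WT at 25°C. The exons of prg-1 also overlap those of D2030.12 on the opposite strand, and whether the counting used strand is not given in the sources used here.

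At 20°C prg-2 had 7198 and 8109 in *nmad-1*, against 11399 and 9449 in WT. These libraries did not overlap, but the log2 fold change of -0.44 (95% interval -0.95 to 0.06) did not pass (limma, adjusted p = 0.84). prg-1 had 5641 and 7700 in *nmad-1*, against 7664 and 7775 in WT, and the groups overlapped. Its log2 fold change was -0.23 (95% interval -0.74 to 0.28). The difference between the temperatures in the genotype effect was tested over all 8 libraries, where 9.32% of 11265 genes passed. Its median was -0.33 over the 3986 genes averaging 1000 or more, -0.71 over the oocyte markers and -0.64 over the germ cell markers. The difference was -1.41 for prg-2 (SE 0.24, adjusted p = 0.0084), which did not pass without the variance trend (adjusted p = 0.056). For prg-1 it was -0.65, which did not pass (adjusted p = 0.11).

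**Figure D2:**
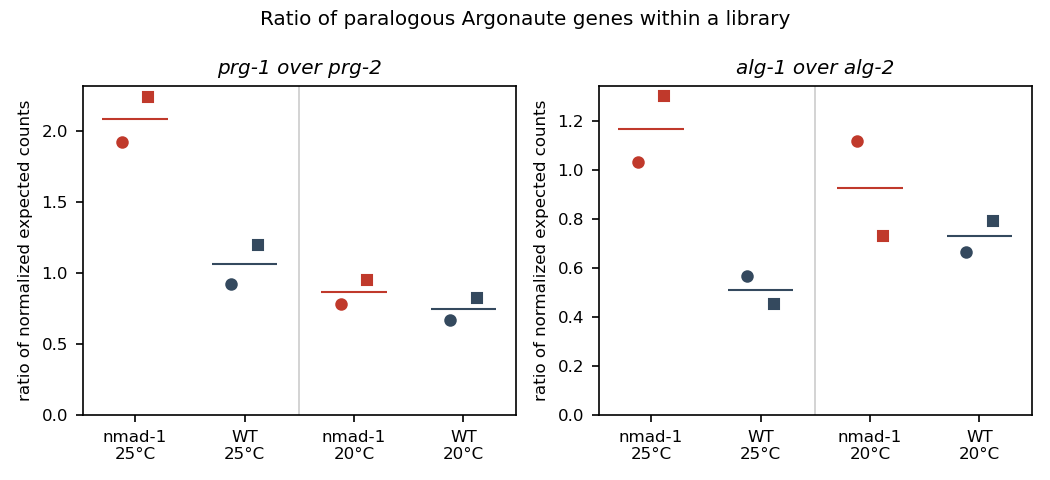
Ratio of prg-1 to prg-2 (left) and of alg-1 to alg-2 (right) within each library, linear axes from 0, with nmad-1 in red, WT in dark blue, circles for library A, squares for library B and lines for the mean of the pair. At 25°C both ratios were above 1 in both nmad-1 libraries, and the prg-1 to prg-2 ratio was 0.928 and 1.20 in WT.

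Of the 9 genes, csr-1 had the second lowest fold change at 25°C. It had 6015 and 6630 normalized expected counts in *nmad-1* at 25°C, against 16384 and 15906 in WT, and the spread within each genotype was small beside this gap. Its mean was 2.55-fold higher in WT, with a log2 fold change of -1.35 (SE 0.09, limma, adjusted p = 1.5e-04), and only 0.984% of the well expressed genes had a lower fold change. At 20°C csr-1 had 6835 and 8228 in *nmad-1*, against 10936 and 10705 in WT. These libraries did not overlap either, but the log2 fold change of -0.53 (SE 0.25) reached only an unadjusted p of 0.040 (limma, adjusted p = 0.68). The genotype effect differed between temperatures by -0.83 (SE 0.22, adjusted p = 0.036), a call that was lost in 7 of the 8 omissions of 1 library (adjusted p between 0.051 and 0.16) and with equal library totals (-0.31, adjusted p = 0.21). Exons of csr-1 overlap those of frpr-10 on the same strand, so reads there cannot be assigned with certainty.

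The genes whose values ran most like csr-1 over the 8 libraries were cct-2, a subunit of the cytosolic chaperonin, C53H9.2 and Y62E10A.20. Likeness was the root mean square difference of log2(value + 1), centred within each table, among 11264 genes, and it was 0.04, 0.06 and 0.06. cct-2 had 4611 and 4878 in *nmad-1* at 25°C, against 11233 and 11609 in WT. The genes most like prg-1 were hrde-1, the nuclear germline Argonaute of inherited silencing, npp-9, a nuclear pore protein, and erfa-3, a translation termination factor, all at 0.03. hrde-1 had 20108 and 20651 in *nmad-1* at 25°C, against 37836 and 39427 in WT. Among the other members, alg-2 was the 48th most similar gene to prg-1 and prg-2 the 5972nd. These are descriptions over libraries that share depth and cell makeup.

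ergo-1 and rde-1 had fold changes nearer 0 than those of prg-1, prg-2, csr-1 and alg-2, a difference that was not tested. ergo-1 had 10024 and 9643 in *nmad-1* at 25°C, against 14940 and 15747 in WT, a log2 fold change of -0.64 (SE 0.09, limma, adjusted p = 6.2e-04). rde-1 had 2838 and 2681 in *nmad-1*, against 4312 and 3983 in WT, a log2 fold change of -0.59 (SE 0.09, adjusted p = 0.0010). Of the well expressed genes, 30.2% had a lower fold change than ergo-1 and 37.6% a lower one than rde-1, so both lie close to the median of -0.50 for genes of this level. As shares of the values outside ribosomal RNA, ergo-1 averaged 594 ppm in *nmad-1* and 625 in WT, and rde-1 averaged 167 ppm in *nmad-1* and 169 in WT. With every library scaled to the same total, neither passed: ergo-1 had a log2 fold change of -0.07 (adjusted p = 0.51) and rde-1 of -0.02 (adjusted p = 0.89). Exons of ergo-1 overlap those of pei-2 on the opposite strand.

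At 20°C the genotypes overlapped for both. ergo-1 had 8821 and 12165 in *nmad-1*, against 11478 and 10978 in WT, a log2 fold change of -0.12 (95% interval -0.62 to 0.39). rde-1 had 2337 and 2980 in *nmad-1*, against 2925 and 3106 in WT, a log2 fold change of -0.19 (95% interval -0.71 to 0.33). The change of the genotype effect with temperature was -0.53 for ergo-1 (limma, adjusted p = 0.18) and -0.40 for rde-1 (adjusted p = 0.26), and neither passed.

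The miRNA Argonautes moved in opposite directions at 25°C. alg-2 had 968 and 1015 normalized expected counts in *nmad-1*, against 1609 and 1860 in WT, and fell by 0.80 on the log2 scale (SE 0.11, limma, adjusted p = 6.2e-04). alg-1 had 996 and 1318 in *nmad-1*, against 909 and 840 in WT, a log2 fold change of 0.39 (SE 0.15, adjusted p = 0.042). alg-1 stood at 1.03 and 1.3 times alg-2 in *nmad-1*, against 0.565 and 0.452 times in WT, and this ratio is independent of scaling. The alg-1 call had the highest adjusted p of the 9 in the deposited scaling. Without any one of *nmad-1* library B, WT library A and WT library B it did not pass (log2 fold changes 0.19, 0.45 and 0.33). Nor did it pass with no filter on low values (limma, adjusted p = 0.065) or without the variance trend (0.15). With equal library totals it did pass, at 0.96 (limma, adjusted p = 0.0018). It also passed with equal totals outside ribosomal RNA genes (0.96, adjusted p = 5.9e-04) and upper quartile scaling (0.77, adjusted p = 0.0048). Among the well expressed genes, 96.8% had a lower fold change than alg-1.

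alg-1 is widely expressed in somatic tissue, and markers of some somatic tissues, but not of all, rose at 25°C. The muscle sums are given above. Neuronal markers summed to 314 to 375 ppm in *nmad-1* and 152 to 173 in WT, with 6 of 8 rising. Intestinal markers summed to 5658 to 18731 ppm in *nmad-1* and 1928 to 3357 in WT, with 5 of 8 rising and 1 falling. Gonadal sheath and spermatheca markers summed to 908 to 1095 ppm in *nmad-1* and 993 to 1176 in WT, with 3 of 8 rising and 2 falling. Cuticle and epidermis markers summed to 103.5 to 116.8 ppm in *nmad-1* and 58.4 to 112 in WT, with 3 of 6 tested rising and 2 falling, and both of these sums overlapped between the genotypes. Their part in the alg-1 value was not tested. At 20°C alg-1 had 1784 and 1551 in *nmad-1*, against 1393 and 1582 in WT, and alg-2 had 1597 and 2125 in *nmad-1*, against 2096 and 1999 in WT. The genotypes overlapped for both genes, with log2 fold changes of 0.16 (95% interval -0.37 to 0.69) for alg-1 and -0.15 (95% interval -0.68 to 0.38) for alg-2. The effect changed with temperature by 0.23 for alg-1 (limma, adjusted p = 0.55) and -0.65 for alg-2 (adjusted p = 0.12), without passing.

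**Figure D3:**
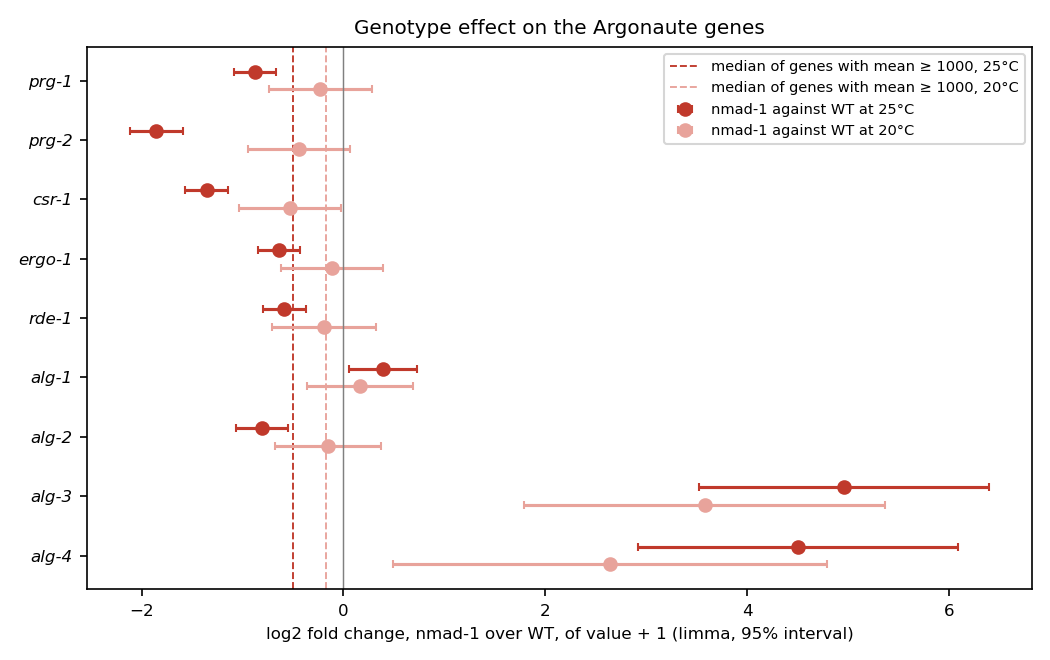
Log2 fold change of nmad-1 over WT of value + 1 for each Argonaute gene (points) with its 95% interval from limma (bars), at 25°C (dark) and 20°C (light), and the median of genes averaging 1000 or more (dashed lines, -0.50 at 25°C and -0.17 at 20°C). At 25°C prg-2 and csr-1 lie far left of that median, ergo-1 and rde-1 near it, and alg-3 and alg-4 at 4.96 and 4.51.

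The sperm Argonautes alg-3 and alg-4 were near the floor in WT and higher in *nmad-1*. At 25°C alg-3 had 70.9 and 143 normalized expected counts in *nmad-1*, against 0.990 and 4.39 in WT. In estimated reads this is 62 and 185 in *nmad-1*, against 1 and 4 in WT, a ratio of 43.9 with a 95% counting interval of 18.5 to 136. alg-4 had 56.1 and 131 in *nmad-1*, against 5.94 and 1.10 in WT, from 49 and 169 reads in *nmad-1* against 6 and 1 in WT. Its ratio was 27.6 (13.2 to 69.6). These intervals cover counting error only. The log2 fold changes were 4.96 for alg-3 (SE 0.63, limma, adjusted p = 4.2e-04) and 4.51 for alg-4 (SE 0.69, adjusted p = 8.8e-04), both understated by the added 1.

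At 20°C a single library carried most of the signal. alg-3 had 89.5 and 19.5 in *nmad-1*, against 5.89 and 0.888 in WT, from 108 and 23 reads in *nmad-1* against 4 and 1 in WT. alg-4 had 107 and 6.78 in *nmad-1*, against 20.6 and 0 in WT. Library A of *nmad-1* was the high one for both genes, and for alg-4 the genotypes overlapped. That library also differed in other markers. Muscle markers summed to 5713 ppm in it, 1903 in *nmad-1* library B and 1885 to 2661 in WT. Neuronal markers summed to 604, 278 and 268 to 302 in the same order, and intestinal markers to 6116, 17484 and 11236 to 13219. The part of this makeup in the alg-3 and alg-4 values was not tested. In WT library B the 0 reads of alg-4 allow up to 3.

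alg-3 was the 1 member of 9 that passed at 20°C, where 0.481% of 12260 genes did, with a log2 fold change of 3.58 (SE 0.89, limma, adjusted p = 0.045). The call was lost with either other pseudocount, no filter, 3 other scalings and no variance trend (adjusted p between 0.051 and 0.86), and without either WT library (0.099 and 0.99996). It held without *nmad-1* library B (0.029), and without library A alg-3 was below the filter on low values, so the test rests on a gene kept by the group in which it is high. alg-4 had 2.64 (SE 1.07, adjusted p = 0.48). Neither gene's effect differed between temperatures by the test: the difference was 1.38 for alg-3 (adjusted p = 0.45, 95% interval -1.29 to 4.06) and 1.87 for alg-4 (adjusted p = 0.51, -2.38 to 6.12).

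Some transcripts of sperm cells moved with both genes across libraries. gsp-3, a sperm protein phosphatase, had 80.1 and 133 in *nmad-1* at 25°C, against 2.97 and 2.19 in WT, and msp-142, a major sperm protein gene, had 52.6 and 80.4, against 0.990 and 2.19. At 20°C gsp-3 had 91.3 and 11.02 in *nmad-1*, against 8.83 and 1.78 in WT, with library A again the high one. fog-3, on the same list of sperm markers, did not share this pattern. At 20°C it had 33.2 and 46.6 in *nmad-1*, against 11.8 and 12.4 in WT. Of the 16 sperm markers 12 were tested at 25°C, of which 11 rose and 1, the transcription factor gene spe-44, fell. As 8 of the 12 had a mean of at least 10 only in *nmad-1*, this count describes genes kept for being high there. The 16 summed to 291 to 294 ppm in *nmad-1* and 81.9 to 89.9 in WT at 25°C, and to 101 to 140 in *nmad-1* and 73.4 to 80.6 in WT at 20°C. Per 1000 of this sum, alg-3 was 14.8 and 29.4 in *nmad-1*, against 0.465 and 2.10 in WT at 25°C. Most of that sum came from fog-1, with 2965 and 2729 in *nmad-1* and 1159 and 1107 in WT, and spe-44, with 414 and 439 in *nmad-1* and 801 and 826 in WT. Oocyte markers summed to 13185 to 14144 ppm in *nmad-1* and 17353 to 17738 in WT at 25°C, in libraries labelled L4. Whether the label matches the stage of these germlines was not tested. The part of sperm-producing cells, or of stage, in the alg-3 and alg-4 values was not tested.

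The genes most like alg-3 over the 8 libraries were ZK945.7, nspd-1 and T22B3.3, at 0.25, 0.30 and 0.34, and T22B3.3 is its neighbour on chromosome IV on the opposite strand. Those most like alg-4 were sss-1, C04G2.3 and msp-64, a major sperm protein gene, at 0.31, 0.44 and 0.48. alg-4 was the 211th most similar gene to alg-3, and alg-3 the 162nd to alg-4, so the paralogs were not each other's nearest match.

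**Figure D4:**
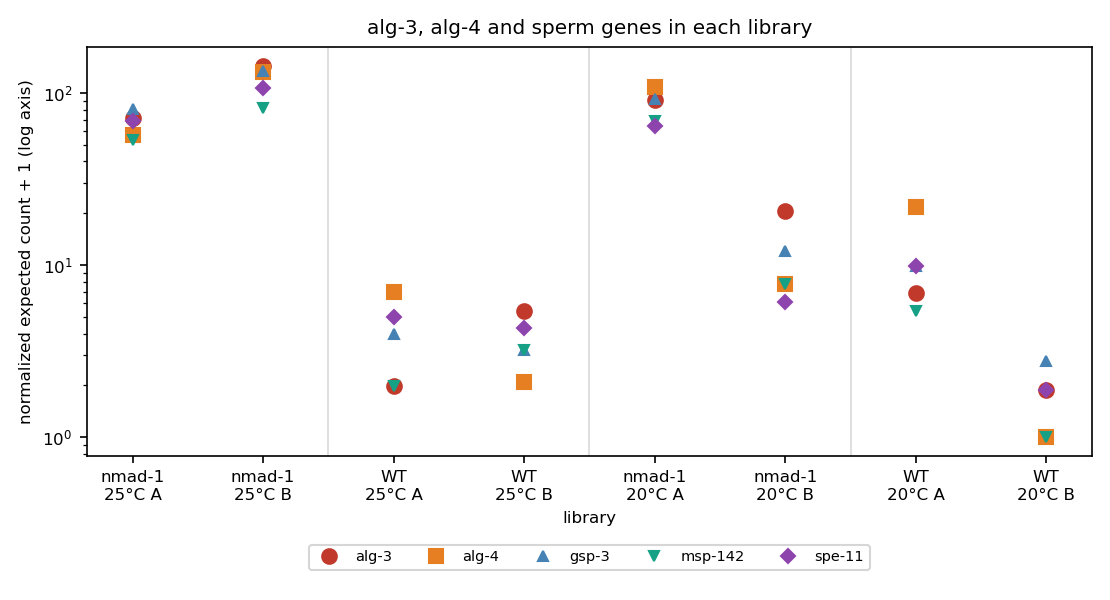
Normalized expected count + 1 (log axis) of alg-3, alg-4 and the sperm genes gsp-3, msp-142 and spe-11 in each library, with nmad-1 left of WT at 25°C and then at 20°C. All 5 are high in both nmad-1 libraries at 25°C and in nmad-1 library A at 20°C, and alg-3 is 19.5 in nmad-1 library B at 20°C.

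The order of the genes by level was set in ppm per kilobase of exon. In *nmad-1* at 25°C it ran prg-1 169, ergo-1 163, csr-1 104.1, prg-2 85.8, rde-1 51.8, alg-2 14.5, alg-1 10.4, alg-3 1.97 and alg-4 1.62. In WT at 25°C it ran prg-2 210, prg-1 209, csr-1 180, ergo-1 171, rde-1 52.6, alg-2 17.03, alg-1 5.33, alg-4 0.042 and alg-3 0.033. In *nmad-1* at 25°C the libraries overlapped between prg-1 and ergo-1 and between alg-3 and alg-4. In WT at 25°C they overlapped between prg-2 and prg-1, between csr-1 and ergo-1 and between alg-4 and alg-3. Among these 9 genes prg-2 was thus one of the highest 2 in WT and the fourth in *nmad-1*. The WAGO genes were not placed in this order.

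At 20°C prg-2 led in both genotypes, with 169 per kilobase in *nmad-1* and 198 in WT, and the next was ergo-1 with 158 in *nmad-1* and 147 in WT. The libraries of prg-2 and ergo-1 overlapped in *nmad-1*. csr-1 stood at 114 in *nmad-1* and 141 in WT, and prg-1 at 138 in *nmad-1* and 139 in WT. Every Argonaute gene from rde-1 down kept its place below these 4 in all groups.

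Between temperatures the tables were scaled separately, so only levels in ppm are set side by side, with no test. prg-1 was 1.22 times as high at 25°C as at 20°C in *nmad-1* and 1.5 times in WT. csr-1 was 0.914 times in *nmad-1* and 1.27 times in WT, and prg-2 was 0.508 times in *nmad-1* and 1.06 times in WT. In *nmad-1* both 25°C libraries lay below both 20°C libraries for csr-1 and prg-2. In WT both lay above for csr-1, and for prg-2 the temperatures overlapped. alg-1 was 0.742 times in *nmad-1* and 0.50 times in WT, and alg-2 was 0.583 times in *nmad-1* and 0.718 times in WT. Both 25°C libraries lay below both 20°C libraries for these genes, except for alg-1 in *nmad-1*, where the temperatures overlapped.

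The other genes of these pathways were counted beside the Argonautes. Of 13 WAGO Argonautes 12 were tested at 25°C, of which 9 fell, 2 rose and 1, sago-2, did not pass, with a median log2 fold change of -0.88. wago-4, which transmits silencing between generations, had 4779 and 4822 in *nmad-1*, against 9903 and 9958 in WT (log2 fold change -1.05). wago-2 had 2839 and 2686 in *nmad-1*, against 9171 and 6849 in WT (-1.52). ppw-1, which is needed for RNA interference in the germline, had 3999 and 4624 in *nmad-1*, against 9482 and 8923 in WT (-1.10). These are the fallers with the smallest p. The risers were wago-10, which passed the filter only through *nmad-1*, with 26.3 and 65.9 in *nmad-1* and 1.98 and 3.29 in WT (3.58), and sago-1, with 410 and 581 in *nmad-1* and 256 and 253 in WT (0.93).

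wago-10 is, like alg-3 and alg-4, known for its expression in sperm-producing germ cells. At 20°C it had 40.6 and 10.2 in *nmad-1*, against 11.8 and 2.66 in WT, again with the high value in *nmad-1* library A. None of the 12 WAGO genes passed at 20°C, where 1 had an unadjusted p under 0.05.

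Most factors that make or act with the small RNAs of these Argonautes fell at 25°C, as did 79.2% of well expressed genes. Of the 14 piRNA factors found of 15, 13 fell, with a median log2 fold change of -0.63, and henn-1, the methyltransferase that stabilises piRNAs, missed the threshold at -0.28 (limma, adjusted p = 0.053). The smallest p-values belonged to deps-1, a P granule protein, tofu-6 and tofu-2, with log2 fold changes of -0.87, -0.98 and -0.81. Of the 8 genes of the ERI complex and 26G production, 6 fell and eri-5 and eri-9 did not pass, with a median of -0.53. drh-3, a Dicer-related helicase, dcr-1, the Dicer enzyme, and rrf-3, the polymerase that starts 26G production, led with -0.78, -0.69 and -0.66. As shares these 8 genes summed to 1142 to 1243 ppm in *nmad-1* and 1087 to 1260 in WT, which overlap. The 3 CSR-1 partners found of 4, drh-3, ekl-1 and ego-1, all fell, with a median of -0.66, and their sums of 455 to 475 ppm in *nmad-1* and 469 to 545 in WT also overlapped. The piRNA factors summed to 1294 to 1429 ppm in *nmad-1* and 1455 to 1531 in WT.

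Of 8 genes listed as miRNA factors, which make, act with or turn over miRNAs, 6 fell and ain-1 and ain-2 did not pass, with a median of -0.44. The leading ones were xrn-2, an exonuclease, tsn-1 and vig-1, with log2 fold changes of -0.98, -0.90 and -0.99. Against the median of -0.50 for genes averaging 1000 or more, the medians of these 5 lists run between -0.88 and -0.44. None is lower than the medians of the germline markers, -0.98 for germ cells and -0.88 for oocytes. At 20°C none of the genes in these 5 lists passed, and the medians lay between -0.24 and -0.14, beside -0.17 for well expressed genes. In the test of the genotype effect between temperatures, 2 of 12 WAGO genes passed, both more negative at 25°C. Over all 11265 genes 9.32% passed, 141 genes as more negative. The median difference was -0.33 over the 3986 genes averaging 1000 or more. Without the variance trend 4 genes passed as more positive and 0 as more negative.

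How the 25°C libraries are scaled decides how many of the genes tested count as lower. In the deposited scaling 3917 genes were higher and 4545 lower, and with the same total in each library 6244 were higher and 767 lower, while the median of all genes tested was -0.09 and 0.51. Relative to that median, the log2 fold change was -1.77 for prg-2, -1.27 for csr-1, -0.79 for prg-1, -0.72 for alg-2, -0.55 for ergo-1 and -0.50 for rde-1 in the deposited scaling. These 6 lay below the median under every scaling and filter run and without any one library. The median of genes averaging 1000 or more, as these 6 do, was itself -0.50 in the deposited scaling. Most genes of that level thus also lay below the median of all genes tested. prg-1, prg-2 and csr-1 passed as lower in every setting and omission. alg-3 and alg-4 passed as higher in every one in which they were tested, which leaves out a mean of at least 100. ergo-1, rde-1 and alg-2 did not pass with equal totals, with or without ribosomal RNA genes, and rde-1 did not pass with upper quartile scaling (-0.21, adjusted p = 0.080). The settings that lost alg-1 are given above.

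**Figure D5:**
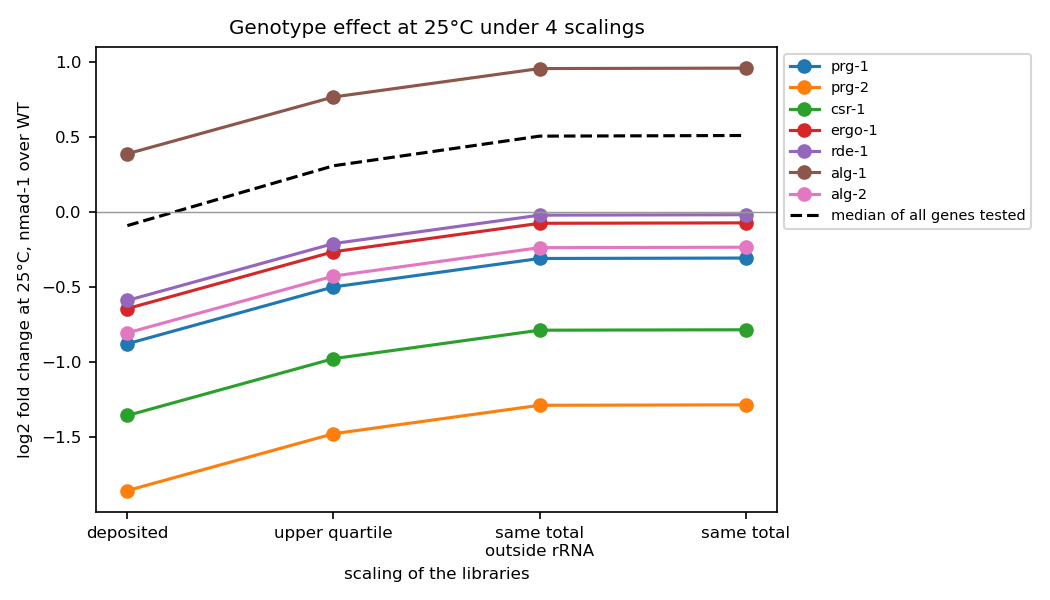
Log2 fold change at 25°C, nmad-1 over WT, of 7 Argonaute genes (coloured lines) and the median of all genes tested (dashed) under the deposited scaling, upper quartile scaling and equal totals without and with ribosomal RNA genes. All lines shift together by about the median's move, which was at -0.09 in the deposited scaling and 0.51 with equal totals, and prg-2 and csr-1 stay below 0 under each scaling while rde-1 and ergo-1 end near 0.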

How the data were processed

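Per the labels and the study's methods, the authors extracted mRNA from germlines, aligned paired-end reads to WS220 (ce10) with Bowtie2 2.2.9 and quantified genes with RSEM 1.3.0. They deposited, for each temperature, a table of signal per gene and library: the expected count of RSEM divided by a size factor of EBSeq, which was read from the values. They also deposited comparison tables with posterior probabilities and fold changes, which were not used. Columns were assigned to genotypes from the comparison that the sample descriptions name and the name of the same comparison in the study's supplement.

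Of the values above 0, 90.9% to 92.0% were whole multiples of 1 read (tolerance 0.01 reads), too few for a count test. In R 4.3.3, limma 3.58.1 with a variance trend was run on log2(value + 1) of genes averaging 10 or more, and p-values were adjusted by Benjamini-Hochberg over all of them, with a threshold of 0.05. The interaction used all 8 libraries. Within groups, replicate libraries were not duplicates: chi-square per degree of freedom ran between 21.7 and 113. Current symbols matched 43720 of 46739 IDs, and exon lengths, overlaps and gene types come from WBcel235, so no coordinates are given. The code was tested on simulated data.

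The members and gene lists were chosen with earlier results of these data known. Besides the 9 members and *nmad-1*, genes were named by 2 rules: the 3 genes of each list with the smallest p in each direction at 25°C, and the 3 genes most like alg-3, alg-4, csr-1 and prg-1. gsp-3, msp-142, spe-11, spe-44, fog-1, fog-3, sago-2, henn-1, eri-5, eri-9, ain-1, ain-2, wago-11 and C06A1.4 were named after their values were seen. Alternatives were pseudocounts of 0.5 and 5, no filter, a mean of at least 100, other scalings, no variance trend, and each library left out in turn.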

Additional observations from a re-analysis of the deposited data

Results flagged for a closer look

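The genotype effect on prg-2 differed between the temperatures by -1.41244 on the log2 scale (limma interaction over 8 libraries, adjusted p = 0.0084), with both *nmad-1* libraries below both WT libraries at 25°C and at 20°C. The call was lost only without the variance trend (adjusted p = 0.056).

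The effect on csr-1 differed between the temperatures by -0.825187 on the log2 scale (limma interaction, adjusted p = 0.036), again with no overlap of the genotypes at either temperature. The median difference over the 3986 genes averaging 1000 or more was -0.33. It was -0.71 over the 12 oocyte markers and -0.64 over the 10 germ cell markers, all of them negative. The csr-1 call was lost with no filter (limma, adjusted p = 0.057), with the same total in each library (0.21) and without the variance trend (0.10). It was also lost in 7 of the 8 omissions of 1 library, where adjusted p ran between 0.051 and 0.16.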

How the results depend on the processing

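At 25°C the count of Argonaute genes called stayed within 1.5 times of the 9 found, with 6 as the lowest. At 20°C 1 was called, and 0 with a pseudocount of 0.5 or 5, no filter, a mean of at least 100, equal totals with or without ribosomal RNA genes, upper quartile scaling or no variance trend. Without 1 library it ran between 0 and 7, with 7 when *nmad-1* library B was left out. Over all genes at 20°C, 59 passed, and 1 with no filter, 2 with equal totals, 0 with equal totals outside ribosomal RNA genes, 0 with upper quartile scaling and 1 without the trend, where limma gave 1100, 843, 1144, 1007 and 736 genes at an unadjusted p under 0.05. Without 1 library the count ran between 6 (no WT library B) and 4051 (no *nmad-1* library B). The cause was not tested.

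Fold changes at 20°C turned positive for ergo-1 (0.10), rde-1 (0.024) and alg-2 (0.064) with equal totals outside ribosomal RNA genes and for ergo-1 (0.017) with upper quartile scaling, none of them past the threshold. Without 1 library ergo-1 ran between -0.35 and 0.12 and alg-2 between -0.36 and 0.054, negative and past the threshold without *nmad-1* library B (adjusted p = 0.034 and 0.038, limma) and positive without library A.

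For the difference between temperatures, 2 Argonaute genes passed, and 1 with no filter, 1 with equal totals and 0 without the trend, and between 1 and 6 without 1 library (6 without *nmad-1* library A at 20°C). Over all genes 1050 passed, 1789 with equal totals, 443 with upper quartile scaling and 4 without the trend, and between 41 and 5853 without 1 library, the lowest without *nmad-1* library B and the highest without library A at 20°C. rde-1 turned to 0.12 with equal totals. Without 1 library alg-4 ran between -0.35 and 4.08, negative without WT library A (-0.35) or *nmad-1* library B (-0.030) at 20°C.

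No paired analysis was possible because the columns carry no replicate numbers. With 2 libraries in a group, p-values rest on a spread pooled over genes. In WT, alg-3 and alg-4 had at most 14 reads, so their fold changes are imprecise.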

Other observations

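prg-2 is not alone among germline transcripts that the current annotation calls pseudogenes. These were looked at after the value of prg-2 was seen, so they are a description. Of 18 annotated pseudogenes with a mean of at least 1000 at 25°C, 15 fell and 2 rose in *nmad-1*, with a median log2 fold change of -0.95 (-0.94 without prg-2). Of 4025 protein-coding genes at this level 3195 fell and 129 rose, with a median of -0.50. Among the 18 pseudogenes at this level, those with the lowest fold changes were prg-2 (-1.85), C06A1.4 (-1.55) and wago-2 (-1.52). Of 118 pseudogenes with a mean of at least 100 the median was -0.84, beside -0.40 over 7224 protein-coding genes. At 20°C the medians with a mean of at least 1000 were -0.16 over 16 pseudogenes and -0.18 over 3847 protein-coding genes.

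Among the members and the WAGO list, wago-11 is the third gene listed as a pseudogene, and Argonaute genes outside these were not looked for. It had 16.01 and 17.05 normalized expected counts in *nmad-1* at 25°C, against 68.3 and 65.8 in WT, and its fold change was -1.96 on the log2 scale (adjusted p = 0.0018, limma). At 20°C it had 34.8 and 66.1 in *nmad-1*, against 63.3 and 87.0 in WT, and did not pass (-0.62, adjusted p = 0.94). prg-2, wago-2 and wago-11 were therefore the 3 Argonaute genes with the lowest fold changes at 25°C among the members and the WAGO list.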
